A study of Mus musculus with 6 samples.

Results

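The clustered histone genes are the 63 protein-coding genes of the count table whose names begin with Hist1h, Hist2h, Hist3h or Hist4h, out of 21017 genes in all. They were chosen by gene type and name, not by any measured value. There were 5 H1, 17 H2a, 17 H2b, 11 H3 and 13 H4 genes. Histone cluster 1 on chromosome 13 held 51 of them over 2.05 Mb, cluster 2 on chromosome 3 held 9, cluster 3 on chromosome 11 held 2 and cluster 4 on chromosome 6 held 1. The data are RNA-seq of lung group 2 innate lymphoid cells (ILC2s), tissue lymphocytes without rearranged antigen receptors that secrete type 2 cytokines, compared by whether they expressed a green fluorescent IL-10 reporter. Both groups came from 8-week-old C57BL/6J mice carrying the IL-10GFP reporter that had received 3 intranasal doses of 0.5 µg of the alarmin IL-33. The sorted ILC2s then spent 48 h in culture with 10 ng/mL each of the cytokines IL-4, IL-2 and IL-7. A second sort gave the IL-10-producing (3 libraries) and the IL-10-negative cells (3 libraries). The cell type label calls the cells freshly sorted, while the treatment label describes the culture. Whether the libraries stand for different mice or cultures is not in the labels. The p-values therefore reflect the spread among the 6 libraries alone, and that spread may be technical.

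Replication-dependent histones package newly made DNA, and their genes are transcribed mainly in S phase from clusters of near-identical copies. Their mRNAs end, in place of a poly(A) tail, in a short stem-loop that the stem-loop binding protein SLBP holds during processing, export, translation and decay. NPAT and FLASH (Casp8ap2) bring the U7 snRNP and the processing enzymes to these genes in the histone locus body. Some of the genes can also give longer, polyadenylated mRNAs when transcription runs past the stem-loop. ILC2s divide when activated by IL-33 and by the culture cytokines, and in dividing cells the level of histone mRNA follows DNA synthesis. How transcripts were selected for the libraries is not given in the sources used here, and a poly(A) selection would enrich the polyadenylated forms.

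The stem-loop is the sequence that defines this gene class, and the windows below show how it varied between types. It was searched on the sense strand of the longest GENCODE M21 transcript (GRCm38) as 16 bases whose first and last 6 pair as a stem, with GG at the start, CC at the end, TTT from the sixth base on and A as the eleventh. It was present in 41 of 63 members and in 22 of 12792 other tested protein-coding genes (0.172%). Capitals mark the 16 bases of the stem-loop, the lower-case letters are flanking bases, and every window is 5′ to 3′ in DNA letters.
Hist1h1c, chr13:23739506-23739535, plus strand: ccaaaaGGCTCTTTTCAGAGCCaccactcc
Hist1h2ap, chr13:21833026-21833050, minus strand: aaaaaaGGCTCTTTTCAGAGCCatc
Hist2h2aa2, chr3:96246026-96246055, plus strand: taaaaaGGCTCTTTTCAGAGCCacccactg
Hist2h2ac, chr3:96220410-96220439, minus strand: caaaaaGGCTCTTTTTAGAGCCaccaaatc
Hist1h3c, chr13:23745039-23745068, minus strand: aaaaaaGGCTCTTTTAAGAGCCacctaaga
Hist1h4j, chr13:21735431-21735460, plus strand: cctaaaGGTCCTTTTCAGGACCaccacatc
Hist1h4i, chr13:22040958-22040987, minus strand: cttaaaGGCCCTTTTTAGGGCCaccacaaa
Hist1h4c, chr13:23698081-23698110, minus strand: acaaaaGGCCCTTTTCAGGGCCacccacaa
The form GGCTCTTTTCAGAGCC, seen in Hist1h1c, Hist1h2ap and Hist2h2aa2, was the most frequent and occurred in 24 members (3 H1, 10 H2a, 7 H2b and 4 H3). A loop ending in other bases, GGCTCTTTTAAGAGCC, occurred in 2 H2b and 3 H3 genes, Hist1h3c among them. Hist2h2ac was the 1 member with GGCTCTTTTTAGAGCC. H4 genes used other stems: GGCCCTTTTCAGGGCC in 7, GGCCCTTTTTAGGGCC in 2, and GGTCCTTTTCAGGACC in 2, Hist1h4b and Hist1h4j. The 22 members without a match had no such letters in their longest annotated transcript, which is no statement about their mRNA.

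The members together took 0.0629% to 0.0751% of the counts of a library, and 1 gene made up most of this. Levels are given as CPM (counts scaled to a common library size) with TMM factors. Hist1h2ap (ENSMUSG00000094777.2, chr13:21833026-21833507, minus strand), an H2A gene, had 592, 520 and 566 CPM in IL-10-producing cells, against 474, 462 and 484 CPM in IL-10-negative cells. All 3 IL-10-producing libraries lay above all 3 IL-10-negative libraries. Its log2 fold change was 0.24 ± 0.03 (SE; IL-10-producing over IL-10-negative throughout), with an adjusted p of 3.51e-07 by edgeR's quasi-likelihood test with Benjamini-Hochberg adjustment, as for every adjusted p below unless another tool is named. It held 75.7% of the summed CPM of all members and 93.1% of that of the H2a genes. Per kilobase of transcript its level was 1071 CPM over the 6 libraries. The next member on that scale was the linker histone Hist1h1c with 29.2 CPM per kb, followed by Hist2h2aa2 with 16.4 and Hist1h2ao with 14.2. Of the 63 members, 61 had a mean below 10 CPM and 25 had a mean below 1 CPM.

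**Figure D1:**
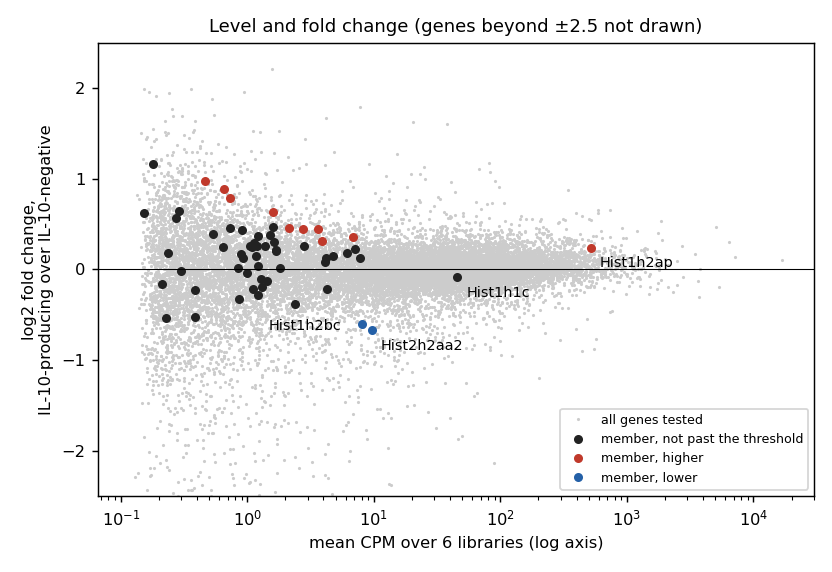
Each point is a gene. The horizontal axis is its mean level over 6 libraries in CPM on a log axis, and the vertical axis is its log2 fold change, IL-10-producing over IL-10-negative; grey points are all genes tested, black points are members not past the threshold, and red and blue points are members that were higher or lower. Hist1h2ap stands alone at the high end of the members, Hist1h1c sits just below 0, and Hist1h2bc and Hist2h2aa2 are the 2 blue points.

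The summed level of the members was 726 ± 38.4 CPM in IL-10-producing cells and 637 ± 14.0 CPM in IL-10-negative cells (SD, n = 3 each), a log2 ratio of 0.19. Without Hist1h2ap the sums were 167 ± 2.14 CPM in IL-10-producing cells and 164 ± 3.54 CPM in IL-10-negative cells, a log2 ratio of 0.025. Most of the difference in the total thus lay in the counts given to 1 H2A gene. Of the 50-base stretches of its transcript, 93.1% also occur in other members, so the division of reads between copies is uncertain. In these bulk libraries, more cells in S phase and more histone mRNA per cell cannot be told apart.

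Of the 60 members that passed the filter on low counts, 10 were higher in IL-10-producing cells, 2 were lower and 48 did not pass the test. The 10 higher members were Hist1h1b, Hist1h1d, Hist1h2ac, Hist1h2ae, Hist1h2af, Hist1h2ao, Hist1h2ap, Hist1h2bg, Hist1h4j and Hist3h2ba, and the 2 lower members were Hist1h2bc and Hist2h2aa2. Hist1h2bp, Hist2h2ab and Hist4h4 were not tested. Among all 16654 genes tested, 17.1% were higher and 18.6% were lower (35.7% in all), so the 16.7% of members that were higher is close to the background share and is no result about the members. The 3.33% that were lower is below the background share. Most members are low in abundance, where fewer genes pass a test. Among the 5129 genes with a mean of 0.5 to 10 CPM, 7.62% were higher and 15.9% were lower, against 8 higher and 2 lower among the 47 members in that range (17.0% and 4.26%). The fold change was positive for 43 members and negative for 17 (71.7% positive), while 49.2% of all genes tested were positive. The median log2 fold change was 0.21 over the members and -0.0038 over all genes tested. With library size alone as the scaling these medians were 0.18 and -0.03, 7 members were higher and 3 lower, and 36.8% of the calls over all genes were higher, against 47.8% with TMM. In 13 tested members all 3 IL-10-producing libraries lay above all 3 IL-10-negative libraries, and in 3 they lay below, where the background over all genes was 21.7% and 23.5%. DESeq2 called 6 members higher and 2 lower, against 32.4% of all genes in either direction. The higher count was 6 without IL-10-producing library 1, without IL-10-producing library 3 or without IL-10-negative library 2, against 7 to 9 without each of the others. The lower count was 3 in those 3 settings and 2 in the rest. A mean under 100 counts per library was found in 44 members.

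**Figure D2:**
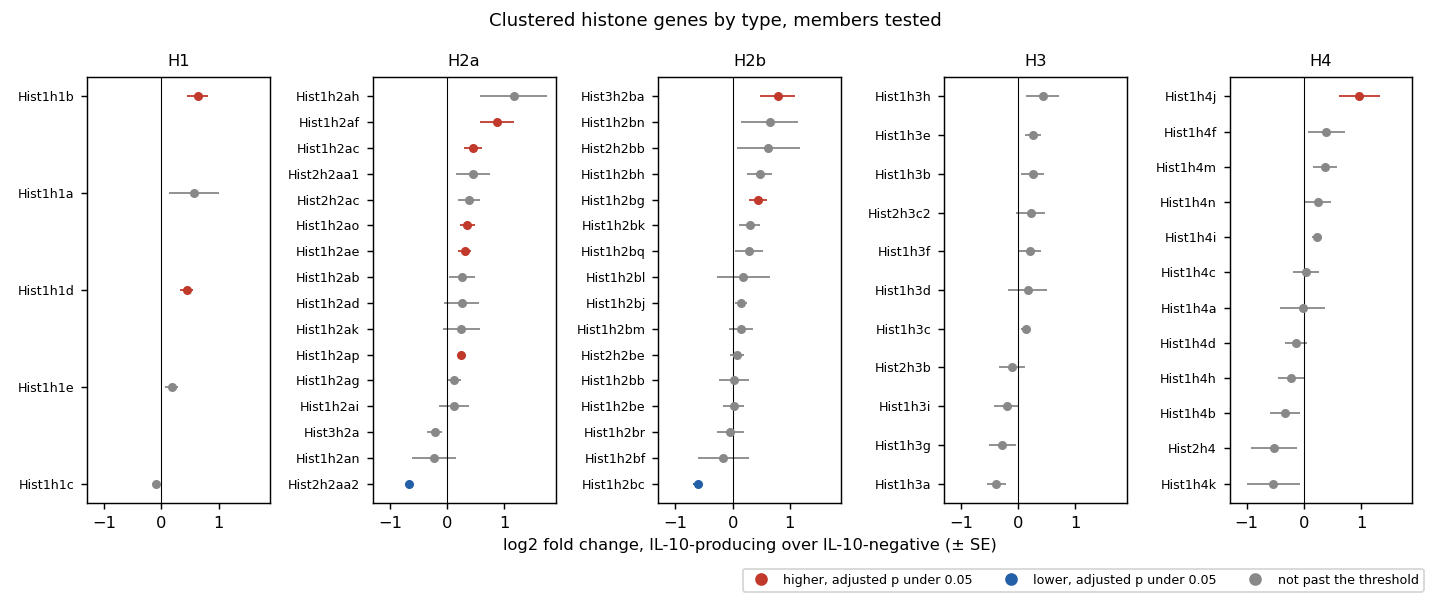
The log2 fold change of every member tested is shown by type, IL-10-producing over IL-10-negative, with horizontal bars for ± 1 SE; red marks members that were higher, blue members that were lower and grey members not past the threshold. Most points lie right of 0 in H1, H2a and H2b (4 of 5, 13 of 16 and 13 of 16), while H4 is split 6 to 6.

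H1 linker histones bind the DNA that enters and leaves the nucleosome, and the variants differ in how tightly they compact chromatin. Of the 5 H1 genes, 2 were higher, none was lower and 3 did not pass the test, with a median log2 fold change of 0.44. The counts of this and the other types stand beside 17.1% higher and 18.6% lower among all genes tested. The summed H1 level was 57.1 ± 1.09 CPM in IL-10-producing cells and 57.3 ± 2.95 CPM in IL-10-negative cells (SD, n = 3 each). Hist1h1c (H1.2), a widely expressed variant, was 79.8% of this sum. It had 44.5, 42.4 and 45.8 CPM in IL-10-producing cells, against 47.6, 45.3 and 48.0 CPM in IL-10-negative cells. The groups overlapped, and the log2 fold change was -0.09 ± 0.04 with an adjusted p of 0.0816. At an unadjusted p under 0.05 it was the 1 H1 gene on the lower side, while DESeq2 called none lower.

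The other 4 H1 genes had positive fold changes, and 2 of them passed the test. Hist1h1b (H1.5) had 1.93, 2.03 and 1.88 CPM in IL-10-producing cells, against 1.35, 1.04 and 1.39 CPM in IL-10-negative cells. Hist1h1d (H1.3) had 4.24, 4.38 and 3.81 CPM in IL-10-producing cells, against 2.84, 3.08 and 3.25 CPM in IL-10-negative cells. In both genes the groups did not overlap. The log2 fold changes were 0.63 ± 0.18 (SE) for Hist1h1b and 0.44 ± 0.12 for Hist1h1d, with adjusted p = 0.00839 and 0.00469. Both calls were kept under every alternative run, with log2 fold changes of 0.51 to 0.71 and 0.39 to 0.50 when libraries were left out in turn. Hist1h1e (H1.4) had 6.82, 6.80 and 5.74 CPM in IL-10-producing cells, against 6.42, 4.33 and 6.46 CPM in IL-10-negative cells, which overlapped (adjusted p = 0.273). Hist1h1e overlaps Hist1h2be on the same strand in the annotation, so reads between those genes are uncertain. Without Hist1h1c the summed H1 level was 12.9 ± 0.918 CPM in IL-10-producing cells and 10.3 ± 1.47 CPM in IL-10-negative cells, a log2 ratio of 0.33 where that of all H1 genes was -0.004.

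H2A forms a dimer with H2B on the outer face of the nucleosome. Of 16 H2a genes tested, 5 were higher, 1 was lower and 10 did not pass the test, and the median log2 fold change was 0.26. The summed H2a level was 598 ± 38.1 CPM in IL-10-producing cells and 511 ± 11.9 CPM in IL-10-negative cells (SD, n = 3 each). Without Hist1h2ap the sums were 38.4 ± 1.54 CPM in IL-10-producing cells and 38.1 ± 1.17 CPM in IL-10-negative cells. The call of Hist1h2ap was kept under every alternative run, with log2 fold changes of 0.20 to 0.29 when libraries were left out and an adjusted p of 9.99e-05 by DESeq2.

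**Figure D3:**
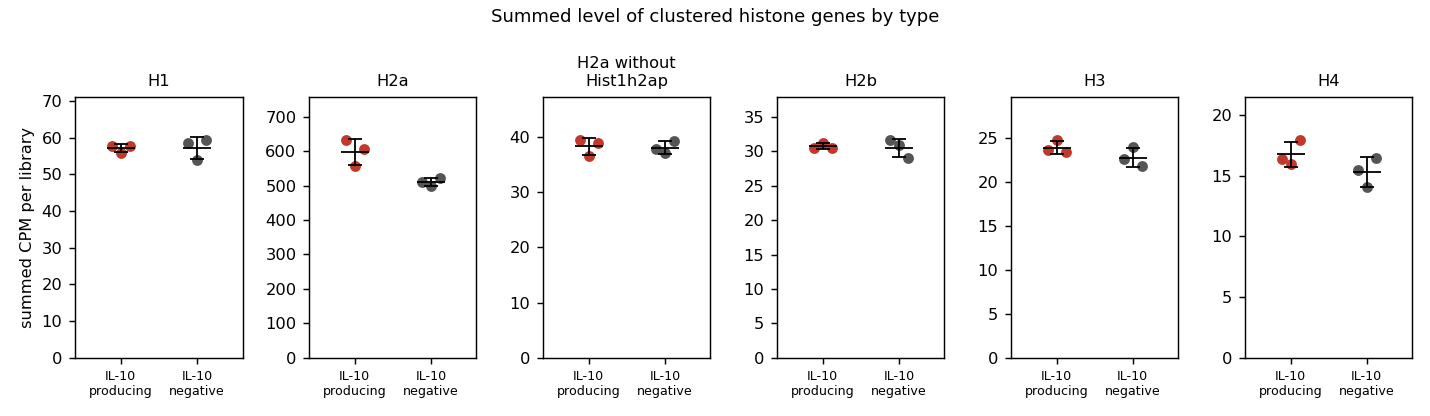
Summed CPM of the clustered histone genes of each type is plotted per library, with IL-10-producing cells left (red) and IL-10-negative cells right (dark grey); black bars are the mean ± SD of 3 libraries, and each axis starts at 0. The groups separate for H2a, at 557 to 632 CPM in IL-10-producing cells and 499 to 523 CPM in IL-10-negative cells, and no longer do once Hist1h2ap is taken out.

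Hist2h2aa2 (ENSMUSG00000064220.6, chr3:96245497-96246082, plus strand) was the lower H2a gene. It had 7.88, 7.41 and 6.98 CPM in IL-10-producing cells, against 11.4, 11.4 and 12.6 CPM in IL-10-negative cells. The groups did not overlap, with a log2 fold change of -0.67 ± 0.08 (SE, adjusted p = 1.09e-07), and the call was kept under every alternative run. In the annotation the gene overlaps RP24-201C14.4 on the same strand and RP24-201C14.6 on the other strand. How reads were divided between these genes is uncertain. GENCODE M21 gives this gene identifier the name Hist2h2aa1 and the identifier of Hist2h2aa1 the name Hist2h2aa2; the names here are those of the deposited table. The pair is nearly identical: 89.2% of the 50-base stretches of the Hist2h2aa2 transcript also occur in its partner. The partner had 0.684, 0.977 and 0.882 CPM in IL-10-producing cells, against 0.849, 0.648 and 0.375 CPM in IL-10-negative cells, which overlapped (adjusted p = 0.262). Summed as 1 feature, the pair remained lower, with 8.27 CPM in IL-10-producing cells and 12.4 CPM in IL-10-negative cells (log2 fold change -0.58 ± 0.07, adjusted p = 2.86e-07).

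The other higher H2a genes changed the summed level little. Hist1h2ac and Hist1h2ae lie outside the naming rule and were named after their values were seen. Hist1h2ac had 2.72, 2.29 and 2.47 CPM in IL-10-producing cells, against 1.66, 1.71 and 2.06 CPM in IL-10-negative cells, with no overlap (log2 fold change 0.46 ± 0.16, adjusted p = 0.0255). Hist1h2ae had 3.86, 4.50 and 4.62 CPM in IL-10-producing cells, against 3.33, 3.56 and 3.58 CPM in IL-10-negative cells, with no overlap (0.31 ± 0.12, adjusted p = 0.0375). Neither call was firm. Hist1h2ac lost its call without IL-10-producing library 1 or without IL-10-negative library 1 or 2 (adjusted p = 0.0834 to 0.105). Hist1h2ae lost it without IL-10-producing library 2 or 3 or any 1 IL-10-negative library (adjusted p = 0.0601 to 0.121), and had an adjusted p of 0.0688 by DESeq2 and 0.0612 with library size alone.

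Hist1h2af and Hist1h2ao are copies whose transcripts are largely shared with other H2a genes. Hist1h2af had 0.925, 0.819 and 0.813 CPM in IL-10-producing cells, against 0.393, 0.367 and 0.624 CPM in IL-10-negative cells, with no overlap (log2 fold change 0.88 ± 0.30, adjusted p = 0.0224). Hist1h2ao had 7.83, 5.88 and 9.29 CPM in IL-10-producing cells, against 5.69, 5.15 and 6.94 CPM in IL-10-negative cells, which overlapped (0.36 ± 0.13, adjusted p = 0.0312). Hist1h2af lost its call without IL-10-producing library 1 or without IL-10-negative library 1 or 2 (adjusted p = 0.0730 to 0.0837). Hist1h2ao lost it without IL-10-producing library 1 or 3 or without IL-10-negative library 1 or 2 (adjusted p = 0.0786 to 0.234), and had an adjusted p of 0.226 by DESeq2 and 0.0559 with library size alone.

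**Figure D4:**
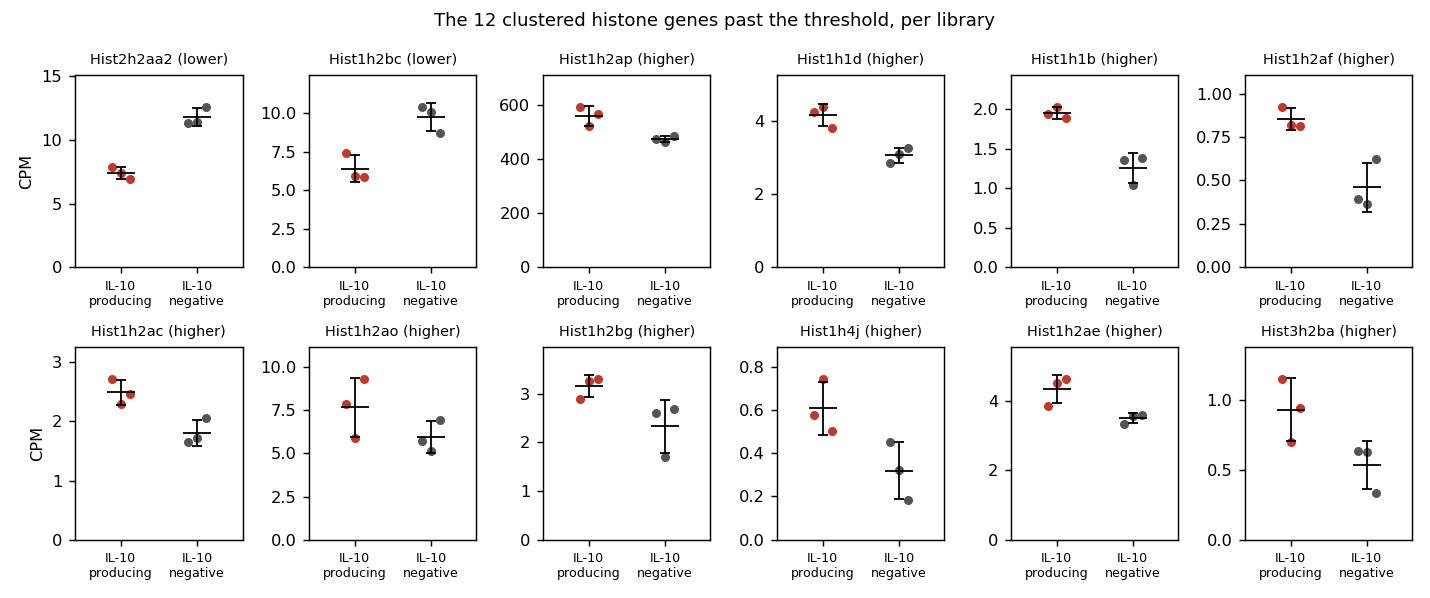
CPM per library of the 12 members past the threshold, with IL-10-producing cells left (red) and IL-10-negative cells right (dark grey) in each panel; black bars are the mean ± SD of 3 libraries and each axis starts at 0. Hist2h2aa2 and Hist1h2bc are lower in IL-10-producing cells, the other 10 are higher, and Hist1h2ao is the 1 panel in which the groups overlap.

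H2B is the partner of H2A in the dimer. Of 16 H2b genes tested, 2 were higher, 1 was lower and 13 did not pass the test, with a median log2 fold change of 0.17. Hist1h2bc (ENSMUSG00000018102.5, chr13:23684199-23692908, plus strand) was the most abundant of them by CPM and the 1 that was lower. It had 7.42, 5.91 and 5.89 CPM in IL-10-producing cells, against 10.4, 10.1 and 8.68 CPM in IL-10-negative cells. The groups did not overlap, with a log2 fold change of -0.60 ± 0.09 (SE, adjusted p = 1.25e-05), and the call was kept under every alternative run.

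The summed H2b level was 30.7 ± 0.446 CPM in IL-10-producing cells and 30.5 ± 1.35 CPM in IL-10-negative cells (SD, n = 3 each). Without Hist1h2bc the sums were 24.3 ± 1.15 CPM in IL-10-producing cells and 20.8 ± 0.448 CPM in IL-10-negative cells, a log2 ratio of 0.23 where that of all H2b genes was 0.01. The most abundant H2b gene and the rest of its type thus differed in sign. Hist1h2bg had 2.90, 3.27 and 3.30 CPM in IL-10-producing cells, against 2.61, 1.71 and 2.68 CPM in IL-10-negative cells, with no overlap (log2 fold change 0.44 ± 0.16, adjusted p = 0.0326). Hist3h2ba of the chromosome 11 cluster had 1.15, 0.701 and 0.941 CPM in IL-10-producing cells, against 0.637, 0.631 and 0.338 CPM in IL-10-negative cells, with no overlap (0.79 ± 0.30, adjusted p = 0.0444). Hist1h2bg lost its call without IL-10-producing library 2 or 3 or without IL-10-negative library 2 (adjusted p = 0.0726 to 0.211). Hist3h2ba lost it without IL-10-producing library 1 or 3 or without IL-10-negative library 3 (adjusted p = 0.0800 to 0.203), and had an adjusted p of 0.0628 by DESeq2 and 0.0548 with library size alone. Of the other H2b genes among the 3 most abundant, Hist1h2bj had a log2 fold change of 0.15 ± 0.10 (adjusted p = 0.289) with groups that did not overlap, and Hist2h2be one of 0.08 ± 0.12 (adjusted p = 0.648) with groups that did.

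H3 and H4 form the tetramer at the core of the nucleosome. None of the 11 H3 genes passed the test in either direction with edgeR or with DESeq2. At an unadjusted p under 0.05, none was higher and 1, Hist1h3a, was lower. Hist1h3a had 2.37, 2.33 and 1.48 CPM in IL-10-producing cells, against 2.75, 2.98 and 2.41 CPM in IL-10-negative cells, with no overlap but an adjusted p of 0.0832. Limma on the authors' normalized values called 1 H3 gene lower. Hist1h3c, the most abundant H3 gene, had 7.84, 8.04 and 8.42 CPM in IL-10-producing cells, against 7.28, 7.75 and 7.19 CPM in IL-10-negative cells, again without overlap (log2 fold change 0.13 ± 0.08, adjusted p = 0.230). Hist1h3e had a log2 fold change of 0.26 ± 0.14 (adjusted p = 0.173) and Hist1h3a one of -0.38 ± 0.17. The H3 median was 0.17, and the summed H3 level was 23.9 ± 0.739 CPM in IL-10-producing cells and 22.7 ± 1.09 CPM in IL-10-negative cells (SD, n = 3 each).

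Of 12 H4 genes tested, 1 was higher and none was lower, and the median log2 fold change was 0.0097. Hist1h4j had 0.577, 0.743 and 0.504 CPM in IL-10-producing cells, against 0.452, 0.321 and 0.185 CPM in IL-10-negative cells, with no overlap (log2 fold change 0.97 ± 0.36, adjusted p = 0.0366). It lost its call without IL-10-producing library 1 or 2 or without IL-10-negative library 2 or 3 (adjusted p = 0.0687 to 0.182) and had an adjusted p of 0.0649 by DESeq2 and 0.0743 by limma on the authors' normalized values. At an unadjusted p under 0.05, 2 H4 genes were higher and none was lower, and DESeq2 called none in either direction. Hist1h4i, the most abundant, had 7.53, 6.79 and 8.54 CPM in IL-10-producing cells, against 6.22, 6.41 and 6.74 CPM in IL-10-negative cells. Its groups did not overlap, and its adjusted p of 0.0549 lay just outside the threshold. Hist1h4d and Hist1h4m, the next most abundant, had log2 fold changes of -0.13 ± 0.19 and 0.37 ± 0.22 (adjusted p = 0.650 and 0.199). The summed H4 level was 16.7 ± 1.04 CPM in IL-10-producing cells and 15.3 ± 1.20 CPM in IL-10-negative cells (SD, n = 3 each).

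Near-identical copies limit what can be said of single members. In 29 of 63 members at least 50% of the 50-base stretches of the transcript also occurred in another member, and 87.3% of the members' deposited values were not whole numbers, against 50.1% over all genes. Of these stretches, 93.1% of those of Hist1h2ap and 93.5% of those of Hist1h2ao also occur in other members, and each is the closest member to the other. Yet their deposited levels differ between 1071 and 14.2 CPM per kb, so how the counting divided reads between them is uncertain. Members were summed with their closest member where at least 50% of the stretches of 1 of the 2 occurred in the other. This gave 43 features, 9 of them groups. The groups also held 29 members, but not the same ones: Hist1h3b stayed single, while Hist1h3f was grouped. Of the 40 features tested, 10 were higher and 2 were lower (25% and 5%), against 17.1% and 18.7% of the 16634 features tested in that fit. Hist1h2ag, Hist1h2ao and Hist1h2ap as 1 feature had 572 CPM in IL-10-producing cells and 483 CPM in IL-10-negative cells (log2 fold change 0.24 ± 0.03, adjusted p = 3.67e-07). The 6 H2a genes Hist1h2ab, Hist1h2ad, Hist1h2af, Hist1h2ah, Hist1h2ai and Hist1h2an together had 4.85 CPM in IL-10-producing cells and 3.94 CPM in IL-10-negative cells (0.30 ± 0.11, adjusted p = 0.0388). The 6 H2b genes Hist1h2bj, Hist1h2bk, Hist1h2bl, Hist1h2bn, Hist1h2bq and Hist1h2br, none of which passed alone, together had 9.63 CPM in IL-10-producing cells and 8.40 CPM in IL-10-negative cells (0.20 ± 0.07, adjusted p = 0.0444). The 5 groups of H3 and H4 copies did not pass the test. This summing was chosen after the data had been seen.

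Members were also set apart by where the annotated transcript ends relative to the stem-loop, a division made after the values were seen and given as a description. In 21 members the transcript ended within 100 bases of the stem-loop, and of these 2 were higher and 1 was lower, with a median log2 fold change of 0.24. In 20 members it ran on for over 100 bases, and of the 19 tested 6 were higher and none was lower (0.22). In the 22 members with no stem-loop match, 20 were tested, 2 were higher and 1 was lower (0.15). Over all genes tested 17.1% were higher and 18.6% lower, and over genes of 0.5 to 10 CPM 7.62% and 15.9%. The 3 classes were not compared by a test. Of the lower members, Hist2h2aa2 ended near its stem-loop and Hist1h2bc had no match.

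Many H2A and H2B genes stand head to head and share the DNA between their starts. There were 11 such divergent pairs, with 176 to 302 bases between the starts, and both genes were tested in 10. The genes of 6 pairs did not pass the test, and in 2 pairs 1 gene was higher and the other not past the threshold. In 1 pair both were higher and in 1 pair they were called in opposite directions. Among all genes tested, 17.1% were higher and 18.6% were lower. The 2 pairs with 1 higher gene were Hist1h2ap with Hist1h2br and Hist1h2ao with Hist1h2bq. Their H2a genes are near-identical copies, as are their H2b genes, so these pairs cannot be counted as separate. The pair with both higher was Hist1h2ae and Hist1h2bg, 176 bases apart. The pair with opposite calls was Hist1h2ac, which was higher, and Hist1h2bc, which was lower, 251 bases apart. The ratio of Hist1h2bc to Hist1h2ac was 2.73, 2.58 and 2.38 in IL-10-producing cells, against 6.27, 5.88 and 4.21 in IL-10-negative cells. It was computed for this pair alone because the calls were opposite, so its difference between groups follows from those calls. The call of Hist1h2ac was lost in 3 of the fits with a library left out. Of the 50-base stretches of the Hist1h2bc transcript, 29.3% also occur in other members. Hist1h2br, the divergent partner of Hist1h2ap, was at 0.79 CPM per kb, where Hist1h2ap was at 1071.

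The promoters of these genes are shown because the genes of a pair share the DNA between their starts. They are RefSeq windows on GRCm38.p6, from 250 bases before to 50 bases after the gene start, 5′ to 3′ in the direction of the first-named gene. Capitals mark CCAAT (the NF-Y site), TATAAA (the TATA box), ATTTGCAT (the octamer bound by Oct-1) and AAACACA (the H1 box), each searched on both strands, so capitals also mark their reverse complements. None of these motifs is contained in another.
Hist1h2ac, chr13:23683910-23684209, minus strand: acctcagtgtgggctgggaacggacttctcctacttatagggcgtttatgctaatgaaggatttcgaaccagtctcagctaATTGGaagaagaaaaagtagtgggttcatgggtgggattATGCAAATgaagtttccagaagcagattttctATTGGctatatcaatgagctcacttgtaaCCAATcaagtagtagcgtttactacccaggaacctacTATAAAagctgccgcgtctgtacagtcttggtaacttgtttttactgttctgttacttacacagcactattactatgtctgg
Hist1h2ae, chr13:23571171-23571470, minus strand: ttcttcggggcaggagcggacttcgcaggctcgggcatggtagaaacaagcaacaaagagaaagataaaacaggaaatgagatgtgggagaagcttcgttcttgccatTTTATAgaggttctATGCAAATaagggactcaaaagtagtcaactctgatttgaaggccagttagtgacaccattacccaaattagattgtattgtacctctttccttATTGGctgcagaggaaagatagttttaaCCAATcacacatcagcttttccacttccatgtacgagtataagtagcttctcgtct
Hist1h2ap, chr13:21833426-21833725, minus strand: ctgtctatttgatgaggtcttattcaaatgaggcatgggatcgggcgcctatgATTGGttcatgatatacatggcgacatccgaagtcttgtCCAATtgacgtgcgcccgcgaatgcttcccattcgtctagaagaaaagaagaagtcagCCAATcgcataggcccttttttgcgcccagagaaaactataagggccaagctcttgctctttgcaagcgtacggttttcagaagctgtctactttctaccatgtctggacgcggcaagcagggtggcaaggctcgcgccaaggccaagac
The window of Hist1h2ap ends at 21833725 and does not reach the start of Hist1h2br at 21833743. The window of Hist1h2ac reaches the start of Hist1h2bc, and that of Hist1h2ae reaches the start of Hist1h2bg. With both strands searched, both held CCAAT, the TATA box and the octamer, while the window of Hist1h2ap held CCAAT alone. The TATA box of the Hist1h2ac window reads in the direction of that gene. The only match in the Hist1h2ae window is a reverse complement, which reads forward in the window of Hist1h2bg. In its own direction the window of Hist1h2ae, like that of Hist1h2ap, held no exact match to the TATA box. Of 55 members with a RefSeq window, 46 held CCAAT (83.6%), against 37.4% of 32851 promoters of the same length. TATAAA was in 31 members (56.4%, against 13.6%). The octamer was in 11 (20%, against 1.74%), of which 6 were H2a and 5 H2b genes. The H1 box was in 5 members (9.09%, against 7.18%), among them 3 of the 4 H1 genes with a window. All H1, H2a, H2b and H3 windows held CCAAT, and 3 of 12 H4 windows did. A match of letters is a description and not a bound site.

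Genes of histone mRNA 3′ processing and histone gene transcription were listed by role. Of 28 tested, 15 were higher, 1 was lower and 12 did not pass the test, with a median log2 fold change of 0.12. Among all genes tested, 17.1% were higher and 18.6% were lower. Slbp, the stem-loop binding protein, had 194, 192 and 187 CPM in IL-10-producing cells, against 170, 168 and 174 CPM in IL-10-negative cells, with no overlap (log2 fold change 0.16 ± 0.02, adjusted p = 2.46e-06). Casp8ap2 (FLASH) had a log2 fold change of 0.21 ± 0.03 (adjusted p = 4.57e-07). Npat, the activator of histone gene transcription, had 52.1, 52.8 and 54.1 CPM in IL-10-producing cells, against 49.0, 49.7 and 51.0 CPM in IL-10-negative cells. It did not pass the test, though its groups did not overlap (0.09 ± 0.03, adjusted p = 0.0573). The 3 genes with the smallest p were Ccne2 (0.48), Ccne1 (0.37) and Ncbp2 (0.23), the first 2 of which encode the E cyclins that activate Cdk2 at the start of S phase, while Ncbp2 is a cap-binding subunit. Lsm10, a subunit of the U7 snRNP, was the lower gene (-0.21, adjusted p = 0.0199), and was named after its value was seen.

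Genes of histone mRNA decay, the step that removes these mRNAs when DNA synthesis stops, were mixed. Of 22 tested, 7 were higher and 2 were lower, with a median log2 fold change of 0.06. All genes tested gave 17.1% higher and 18.6% lower. The 3 with the smallest p were Zcchc11, a uridylyltransferase, at -0.34 ± 0.03 (adjusted p = 1.49e-09), Mtpap, a poly(A) polymerase of mitochondria that has also been linked to histone mRNA decay, at 0.37 ± 0.03 (adjusted p = 3.16e-09), and Eri1, the exonuclease that trims the stem-loop end, at 0.12 ± 0.03 (adjusted p = 4.42e-04). Among 31 histone chaperones and assembly factors, 22 were higher and 1 was lower (median 0.13), beside the same background shares. The 3 with the smallest p were Nap1l1, a chaperone of H2A and H2B, at 0.31 ± 0.02 (adjusted p = 2.11e-10), Hjurp, the chaperone of the centromeric H3 variant, at 0.21 ± 0.02 (adjusted p = 2.42e-09), and Npm1 at 0.21 ± 0.02 (adjusted p = 5.75e-09).

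Histone genes outside the clusters encode variants whose mRNAs are polyadenylated and, for most, are made outside S phase as well. Of 14 tested, 5 were higher (H1f0, H2afz, H2afx, H3f3b and Cenpa), 2 were lower (H2afv and H2afj) and 7 did not pass the test. The median log2 fold change was 0.05, and the background shares were 17.1% higher and 18.6% lower. H1f0, a linker histone variant, had 243, 244 and 254 CPM in IL-10-producing cells, against 191, 183 and 193 CPM in IL-10-negative cells (log2 fold change 0.39 ± 0.02, adjusted p = 1.3e-12). H2afz, which encodes H2A.Z, had 263, 253 and 270 CPM in IL-10-producing cells, against 199, 214 and 201 CPM in IL-10-negative cells (0.36 ± 0.03, adjusted p = 5.54e-11). H2afx, the variant phosphorylated at DNA breaks, also holds the stem-loop in its annotated transcript and averaged 147 ± 4.72 CPM in IL-10-producing cells and 119 ± 1.63 CPM in IL-10-negative cells (SD, n = 3 each; 0.31 ± 0.03 SE, adjusted p = 4.19e-10). In all 3 genes the groups did not overlap. Per kilobase, H3f3b, which encodes the replacement histone H3.3, stood at 217 CPM in IL-10-producing cells and 194 CPM in IL-10-negative cells. The 11 clustered H3 genes had 35.9, 38.1 and 36.6 CPM per kb summed over the genes in IL-10-producing cells, against 35.2, 36.9 and 35.5 CPM per kb in IL-10-negative cells, which overlapped.

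Genes of S phase and DNA replication moved largely one way: 39 of 42 were higher, 3 did not pass the test and none was lower, with a median log2 fold change of 0.18. The background over all genes tested was 17.1% higher and 18.6% lower. At an unadjusted p under 0.05, 40 were higher and none was lower, and DESeq2 called 39 higher and none lower. Rrm2, a subunit of ribonucleotide reductase, had 712, 709 and 703 CPM in IL-10-producing cells, against 530, 529 and 529 CPM in IL-10-negative cells (0.42 ± 0.02, adjusted p = 5.08e-16). Rrm1, the other subunit of that enzyme, had a log2 fold change of 0.33 (adjusted p = 9.7e-13) and Top2a, a topoisomerase of dividing cells, one of 0.27 (adjusted p = 2e-12). The clustered histone genes had a median of similar size, 0.21, but a wider range, -0.67 to 1.16. The upper end was Hist1h2ah, with a mean of 0.18 CPM, an SE of 0.59 and groups that overlapped (adjusted p = 0.131). Most members are low in abundance, where fold changes are less certain, and the ranges were not compared at like levels. The S phase fold changes come from the same libraries, and their part in the histone result was not tested.

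**Figure D5:**
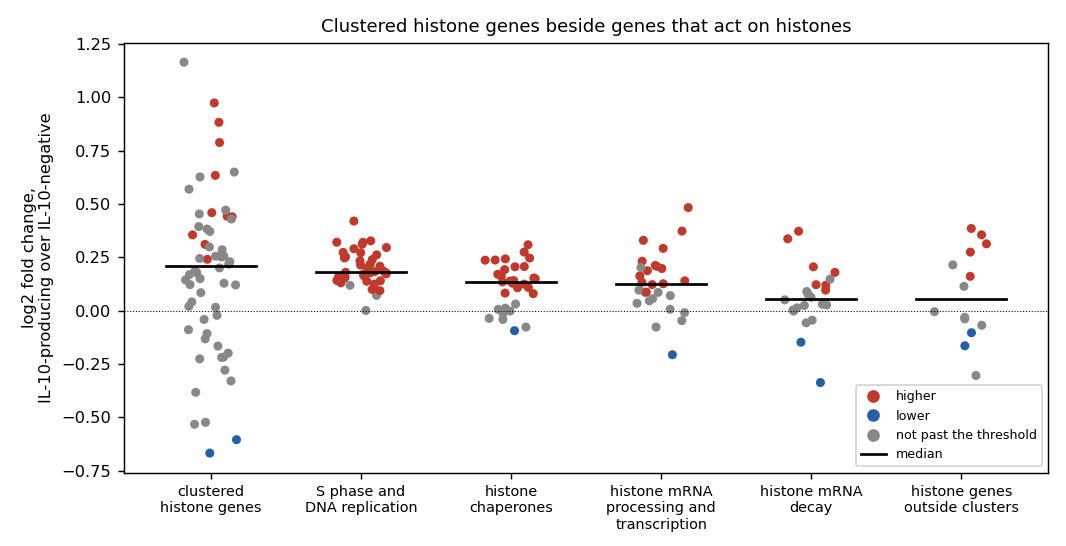
Each point is 1 gene tested, with its log2 fold change, IL-10-producing over IL-10-negative, on the vertical axis; columns are the clustered histone genes and 5 lists of genes that act with them, black bars are medians, and red, blue and grey mark higher, lower and not past the threshold. The clustered histone genes spread from -0.67 to 1.16, while the S phase genes lie between 0.0012 and 0.42. The point at 1.16 is Hist1h2ah, with a mean of 0.18 CPM, and the columns are not matched for level.

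RNAs that carry no poly(A) tail give a view of library make-up. Of 29 such RNAs listed, 12 were in the count table and 9 were tested. Rpph1, the RNA of RNase P, was higher in IL-10-producing cells with 18.2, 16.7 and 19.3 CPM, against 13.5, 13.2 and 13.6 CPM in IL-10-negative cells (log2 fold change 0.42, adjusted p = 4.41e-06). Rn7sk was lower with 36.8, 42.2 and 31.3 CPM in IL-10-producing cells, against 49.1, 47.8 and 51.1 CPM in IL-10-negative cells (-0.41, adjusted p = 6.57e-06). The remaining 7 did not pass the test, among them Rn7s1 at -0.46 (adjusted p = 0.0681). Their part in the histone result was not tested.

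The libraries held 47012941 to 69511433 counts. Il10 averaged 848 ± 7.78 CPM in IL-10-producing cells and 13.5 ± 0.608 CPM in IL-10-negative cells (SD, n = 3 each), as the sort labels say. ILC2 markers were present in every library, and their sums are given below. Markers of other cells moved with the groups, where 17.1% of all genes tested were higher and 18.6% were lower. The 14 T cell markers summed to 130 to 134 CPM in IL-10-producing libraries and 208 to 213 CPM in IL-10-negative libraries (1 higher, 13 lower). The mast cell, basophil and granulocyte markers summed to 13.2 to 15.7 CPM in IL-10-producing libraries and 102 to 109 CPM in IL-10-negative libraries (0 higher and 13 lower of 13 tested with edgeR, 0 higher at an unadjusted p under 0.05, and 0 higher and 12 lower with DESeq2). B and plasma cell markers summed to 50.2 to 51.9 CPM in IL-10-producing libraries and 39.7 to 40.5 CPM in IL-10-negative libraries (3 higher and 5 lower of 9). Those of macrophages, monocytes and dendritic cells summed to 62.7 to 64.7 CPM in IL-10-producing libraries and 67.5 to 69.8 CPM in IL-10-negative libraries (1 higher and 4 lower of 10), with Siglech at 0 in all IL-10-producing libraries. Those of epithelium, endothelium and fibroblasts summed to 119 to 125 CPM in IL-10-producing libraries and 104 to 111 CPM in IL-10-negative libraries (1 higher and 1 lower of 3). The 16 ILC2 markers summed to 17429 to 17568 CPM in IL-10-producing libraries and 16693 to 16839 CPM in IL-10-negative libraries (5 higher, 8 lower). A sum follows its most abundant genes and can differ from the typical gene. The median log2 fold changes were -2.67 for T cells, -2.78 for mast cells, basophils and granulocytes, and -0.98 for B and plasma cells. They were -0.44 for macrophages, monocytes and dendritic cells, 0.29 for epithelium, endothelium and fibroblasts, and -0.12 for ILC2s. The part of these cells in the histone result was not tested.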

How the data were processed

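There were 6 RNA-seq libraries, 3 of IL-10-producing and 3 of IL-10-negative ILC2s. Total RNA was the starting material, and each library was made from 10 ng of RNA. Per the submitters' processing notes, the tools were STAR 2.5.3a, bcl2fastq 2.17.1.14 and Partek, on mm10. The authors deposited estimated counts of reads per gene, with no scaling between libraries. A further deposited table gives scaled signal values of 13824 genes, 49 of them members. The selection of transcripts, the use of strand and the annotation release are not given in the sources used here. Library totals ran from 47012941 to 69511433 counts. Within groups, the spread between any pair of libraries was 2.39 to 2.96 times that of Poisson counts, and all 6 were kept as separate libraries.

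Counts were rounded, and edgeR 4.0.16 (R 4.3.3) was used for a quasi-likelihood F test with TMM factors and the group as the only term. The filter was that of filterByExpr, with 10 as its minimum count and 15 as its minimum total. Adjustment was by Benjamini-Hochberg over 16654 genes with a threshold of 0.05. The procedure was checked on simulated counts with known changes. Alternatives were median-ratio factors, library size alone, a stricter filter (50 counts or more in 3 libraries), no filter, DESeq2 1.42.0, limma 3.58.1 on log2 of the deposited signal values plus 1, a block for the replicate number, and each library left out. Summing members with the same protein was not run, since no protein table was used here, and copies sharing 50-base stretches were summed in its place. A pseudogene row with a histone name was left out (1 row). Values of the 8 members that overlap another row of the table, and of near-identical copies, are uncertain.

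The members and lists were chosen with earlier results of these data known. In each type the text names the 3 tested members with the highest mean CPM, the 2 with the smallest p and the called members with the largest and smallest fold change, and in other lists the 3 genes with the smallest p, along with Il10, Slbp, Npat and Casp8ap2. Marker genes are given as sums, and other genes were named after their values were seen. Transcripts come from GENCODE M21, matched for all 63 members, and promoters from RefSeq on GRCm38.p6, matched for 55.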

Additional observations from a re-analysis of the deposited data

How the results depend on the processing

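Of the 12 members past the threshold, 5 (Hist1h1b, Hist1h1d, Hist1h2ap, Hist1h2bc and Hist2h2aa2) kept their call in every setting run, and the other 7 lost it in at least 1. DESeq2 gave 6 higher members in place of 10, and with libraries left out in turn the number was 6 to 9, with 2 to 3 lower. Under the other settings there were 7 to 11 higher and 2 to 3 lower. The fit with the replicate number as a replicate block gave 10 higher and 3 lower members and 5817 genes called in all, against 5943. Same-numbered libraries did not deviate together (correlations of -0.048, -0.023 and -0.030). With 3 libraries per group and counting noise in every deviation, these correlations cannot show whether the libraries are paired. Hist3h2ba had an adjusted p of 0.0510 with the block, and no other member past the threshold lost its call there. Without the most abundant member, the log2 ratio of the summed level was 0.025 for all members, 0.33 for H1, 0.0098 for H2a and 0.23 for H2b. With all members of the type summed, the ratios were -0.0038 for H1 and 0.010 for H2b. These 2 ratios lie near 0 and changed sign under other settings. H1 was 3.4e-05 with median-ratio factors and -0.046 to 0.022 with libraries left out. It was positive without IL-10-producing library 2 (0.012), IL-10-negative library 1 (0.013) or IL-10-negative library 3 (0.022). H2b was -0.020 with library size alone and -0.025 to 0.037 with libraries left out, negative without IL-10-producing library 2 (-0.0021) or IL-10-negative library 3 (-0.025). Hist2h2be changed sign without IL-10-producing library 2 (-0.058, adjusted p = 0.801), and its range with libraries left out was -0.058 to 0.19. Counts by type moved by over 1.5 times in 26 of 130 settings and counts by list in 13 of 156. The cause of these shifts was not tested. In 44 of 63 members the mean was under 100 counts per library, and how much of their error is counting and how much is spread between libraries was not separated.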
